A study of Mus musculus with 72 samples.

Results

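The REV-ERB nuclear receptors are the products of 2 genes, Nr1d1 (REV-ERB alpha) and Nr1d2 (REV-ERB beta), and their transcripts were followed here in mouse liver. The members were the rows of the deposited count table whose Ensembl identifiers map to these symbols, ENSMUSG00000020889 for Nr1d1 and ENSMUSG00000021775 for Nr1d2, so 2 of the 55573 genes in the table. Livers came from adult male C57BL/6 mice at zeitgeber time (ZT, hours after lights on) 2, 6, 10, 14, 18 and 22. WT mice carried Bmal1 fl/fl, that is loxP-flanked alleles of the clock activator Bmal1 (gene symbol Arntl), and LKO mice carried Bmal1 fl/fl with an Albumin-Cre transgene, so both genotypes shared the floxed alleles. Each genotype was held specific pathogen free (SPF), with gut microbes, or germ free (GF), without them. There were 3 libraries per genotype, microbial state and ZT, 18 per group and 72 in all. The Albumin promoter drives Cre in hepatocytes, so other cells of an LKO liver keep Bmal1, and the bulk counts hold all of them.

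REV-ERB alpha and beta bind DNA at nuclear receptor elements and at ROR response elements and recruit the NCoR and HDAC3 corepressor complex, which silences the genes nearby. The heterodimer of BMAL1 and CLOCK switches on both receptor genes through E-boxes, and the receptors in turn repress Arntl, Clock, Npas2 and Cry1, which closes a second loop of the circadian clock. In liver they also restrain genes of lipid and glucose metabolism, and the ROR receptors compete with them for the same DNA sites as activators.

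All libraries had similar depth, between 17369927 and 22076113 counts. Over the 500 most variable genes, 7 of 72 libraries correlated best at their own ZT with the mean of another group, 2 of them with the other genotype. Those 2, labelled SPF LKO ZT14 replicate 2 and SPF LKO ZT18 replicate 1, held albumin (Alb) at 83336 and 102288 CPM (read counts scaled to library size) against 24684 to 49900 in the other 16 SPF LKO libraries, and Lpl at 20.8 and 34.2 CPM against 555 to 917. The libraries labelled SPF WT ZT14 replicate 3 and GF WT ZT6 replicate 3 correlated best with GF WT at ZT10 and with SPF WT at ZT18. Among all 24 conditions, each of these 4 libraries correlated best with a condition of another group. The rest of the 7 (SPF LKO ZT14 replicates 1 and 3 and ZT18 replicate 2) did so with SPF LKO at ZT10 or ZT22. The 4 libraries go against their labels, were kept where their labels put them, and results on the receptors that rest on them are also given without them. Cre deletes part of Arntl and the counts cover all its exons, so its total is no full check of the deletion. In the other libraries Arntl stayed within 8.52 to 16.8 CPM in SPF LKO and 7.06 to 13.4 CPM in GF LKO mice, and ranged from 0.626 to 39.5 and from 0.332 to 40.96 CPM in SPF WT and GF WT mice. The 5 hepatocyte markers were present in every group, with Alb lower in LKO mice of either state. Summed over the other 4, Ttr, Apoa1, Cps1 and Serpina1c, the medians were 18593 CPM in SPF WT and 18754 in SPF LKO mice, and 25557 in GF WT and 25147 in GF LKO mice. Summed over 5 cholangiocyte markers the range was 33.3 to 98.6 CPM in SPF WT, 31.2 to 136.4 in SPF LKO, 27.3 to 57.7 in GF WT and 44.95 to 162.4 in GF LKO mice, with medians of 53.3, 70.3, 44.5 and 91.0. The medians of 5 lymphocyte markers were 13.6, 10.98, 9.24 and 7.98 CPM in the same order, and those of 5 Kupffer cell markers 270.0, 235.1, 246.7 and 205.2. No marker was at 0 in a whole group, and the part of other cell types in the results below was not tested. In bulk liver, fewer cells of a type and less RNA per cell cannot be told apart.

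Nr1d1 lies on the minus strand at chr11:98767932-98775333 and Nr1d2 on the minus strand at chr14:18204054-18239127 (GRCm38). The exons of Nr1d1 span 3077 bases, of which 263 overlap exons of Thra, the thyroid hormone receptor alpha gene on the opposite strand, and reads there were not counted for either gene. The 5409 exon bases of Nr1d2 overlap no other gene. Levels of the genes were compared only per exon length, with 2814 usable bases for Nr1d1 and 5409 for Nr1d2. The windows upstream of their starts are printed because the loss of an E-box activator was the contrast of the study. They come from the RefSeq promoter table (GRCm38.p6), 5′ to 3′ on the gene's strand, chr11:98775378-98775627 for Nr1d1 (250 bases) and chr14:18239128-18239356 for Nr1d2 (229 bases, the part outside annotated exons). Capitals mark the letters of the motifs found.
Nr1d1: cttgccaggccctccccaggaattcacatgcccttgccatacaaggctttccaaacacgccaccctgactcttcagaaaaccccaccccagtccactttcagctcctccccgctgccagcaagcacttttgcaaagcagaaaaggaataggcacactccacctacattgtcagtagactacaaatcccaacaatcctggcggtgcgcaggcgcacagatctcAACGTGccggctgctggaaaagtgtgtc
Nr1d2: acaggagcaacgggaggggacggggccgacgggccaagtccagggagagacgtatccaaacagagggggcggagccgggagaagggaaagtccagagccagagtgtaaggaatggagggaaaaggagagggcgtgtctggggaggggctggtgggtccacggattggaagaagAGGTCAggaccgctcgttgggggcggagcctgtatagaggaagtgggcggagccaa

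5 motifs were searched on both strands, CACGTG (the E-box), CACGTT (an E-box variant), AGGTCA (the nuclear receptor element), the same element repeated after a short gap and TTATGNAA (the D-box). The window of Nr1d1 held a single match, CACGTT on the other strand at chr11:98775400-98775405, 28 bases upstream of the RefSeq start. That of Nr1d2 held AGGTCA at chr14:18239178-18239183, the letters shared with the repeated element. Among 32851 RefSeq windows of 250 bases, 3.85% held CACGTT, 14.0% AGGTCA, 6.02% CACGTG, 3.07% TTATGNAA and 0.00913% the repeated element. Neither window held the letters CACGTG. Both windows are short and leave out the gene bodies.

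Nr1d1 had the wider daily swing. In SPF WT livers the 3 libraries held 47.9, 45.2 and 48.7 CPM at ZT2, 56.9, 57.6 and 71.7 at ZT6, and 15.6, 27.6 and 20.1 at ZT10. They held 8.55, 3.07 and 84.8 CPM at ZT14, 0.754, 0.867 and 0.923 at ZT18, and 1.73, 1.958 and 5.598 at ZT22. The level was therefore highest at ZT6 and lowest at ZT18, where no library reached 1 CPM, and the 84.8 CPM at ZT14 came from a library that goes against its label. In the order of means ZT6, ZT2, ZT14, ZT10, ZT22, ZT18, neighbours overlapped between ZT2 and ZT14 and between ZT14 and ZT10. The mean at ZT6 was 62.1 ± 8.38 CPM (SD, n = 3), 73.2-fold above the 0.848 ± 0.0859 at ZT18.

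In GF WT livers the mean of Nr1d1 was also highest at ZT6 and lowest at ZT18, though the order between them differed. The 3 libraries held 16.3, 29.1 and 22.3 CPM at ZT2, 51.1, 49.1 and 9.39 at ZT6, and 24.6, 23.1 and 31.5 at ZT10. At night they held 6.55, 5.69 and 4.94 CPM at ZT14, 0.991, 1.33 and 0.667 at ZT18, and 5.16, 0.510 and 2.09 at ZT22. The low value at ZT6 is from the library labelled replicate 3, which goes against its label, and without it the ratio of ZT6 to ZT18 was 50.4 in place of 36.7. In the order of means ZT6, ZT10 and ZT2 overlapped in turn, as did ZT14, ZT22 and ZT18, while ZT2 and ZT14 did not overlap.

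LKO livers held little Nr1d1 at any ZT. SPF LKO libraries held 4.24, 3.53 and 3.72 CPM at ZT2, 7.67, 5.70 and 10.8 at ZT6, and 4.51, 5.53 and 3.03 at ZT10, then 1.25, 5.18 and 3.42 at ZT14, 1.30, 1.17 and 0.495 at ZT18, and 1.38, 1.32 and 1.53 at ZT22. GF LKO libraries held 1.12, 1.34 and 0.789 CPM at ZT2, 3.50, 2.34 and 3.07 at ZT6, and 5.51, 3.73 and 4.72 at ZT10, then 3.32, 3.72 and 1.47 at ZT14, 0.895, 1.04 and 1.67 at ZT18, and 0.639, 0.934 and 0.640 at ZT22. The highest mean stood at ZT6 in SPF LKO mice (8.07 ± 2.58 CPM, SD, n = 3) and at ZT10 in GF LKO mice (4.65 ± 0.891), and in either group it did not overlap with the ZT next in order. Highest and lowest means differed 8.16-fold in SPF LKO and 6.31-fold in GF LKO mice.

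Nr1d2 was high at both ZT6 and ZT10 and stayed at 7.10 CPM or more in every library. SPF WT libraries held 94.2, 55.3 and 100.1 CPM at ZT2, 135.0, 119.6 and 123.0 at ZT6, and 131.3, 134.8 and 137.0 at ZT10. At night they held 60.3, 55.6 and 121.4 CPM at ZT14, 24.2, 29.5 and 38.6 at ZT18, and 19.04, 17.8 and 26.1 at ZT22. GF WT libraries held 51.6, 47.5 and 60.6 CPM at ZT2, 126.7, 126.3 and 89.1 at ZT6, 119.0, 144.1 and 129.0 at ZT10, 79.1, 75.5 and 59.7 at ZT14, 24.6, 26.9 and 20.4 at ZT18, and 15.5, 13.6 and 12.1 at ZT22. In WT mice of either microbial state ZT10 and ZT6 were the highest and overlapped, and ZT22 was the lowest. SPF WT mice had a 6.40-fold and GF WT mice a 9.53-fold ratio of the highest to the lowest mean.

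LKO livers held less Nr1d2 through the day. SPF LKO libraries held 13.02, 12.8 and 17.9 CPM at ZT2, 32.4, 18.1 and 23.9 at ZT6, 27.3, 39.5 and 22.3 at ZT10, 15.4, 65.3 and 10.501 at ZT14, 30.99, 9.77 and 8.69 at ZT18, and 8.39, 7.88 and 10.1 at ZT22. The 65.3 and 30.99 CPM belong to the libraries labelled SPF LKO ZT14 replicate 2 and SPF LKO ZT18 replicate 1, which go against their labels, and each exceeded the other libraries of its condition. GF LKO libraries held 11.7, 9.62 and 8.36 CPM at ZT2, 13.7, 16.6 and 13.8 at ZT6, 18.2, 18.2 and 20.4 at ZT10, 11.1, 11.4 and 11.5 at ZT14, 7.69, 10.8 and 9.68 at ZT18, and 9.16, 7.76 and 7.10 at ZT22. In GF LKO mice ZT10 was the highest and did not overlap with ZT6, the next, while ZT14, ZT2, ZT18 and ZT22 overlapped in turn. Over all 24 conditions, 21 of the 23 neighbours in the order of means overlapped for Nr1d1 and 21 of 23 for Nr1d2.

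**Figure D1:**
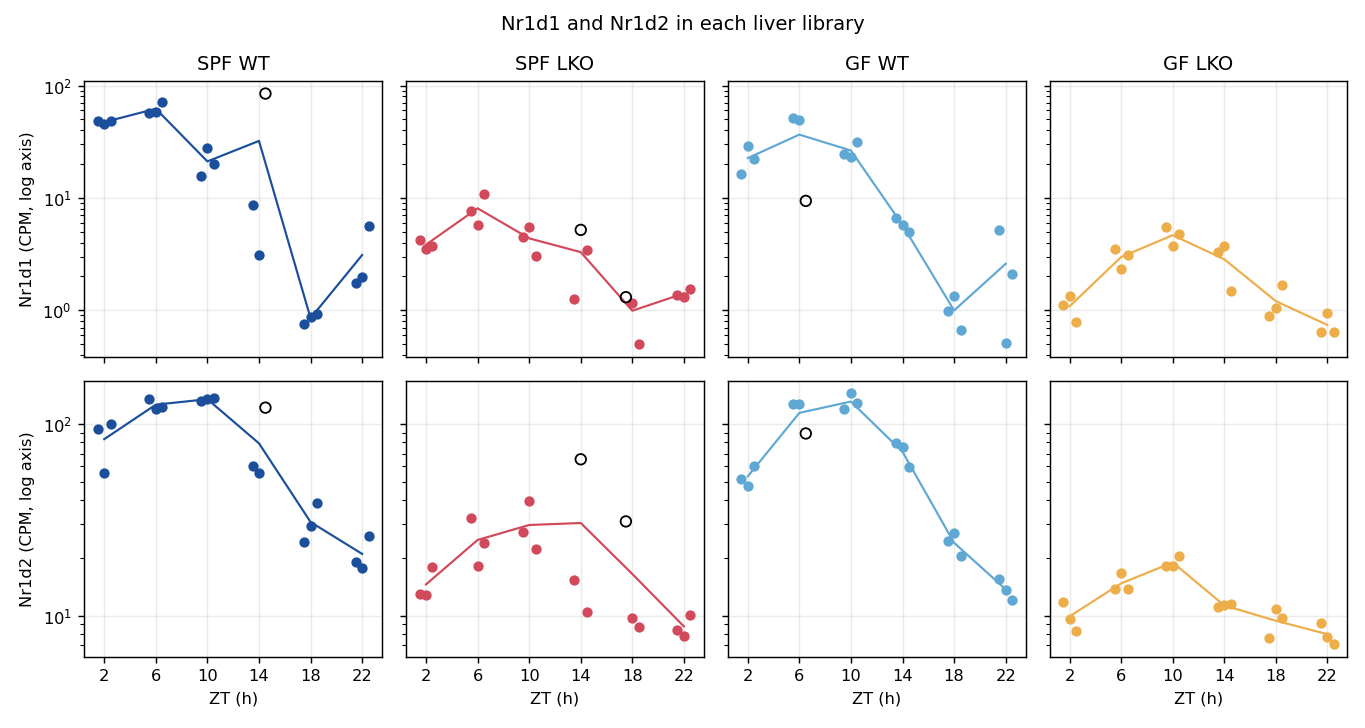
Nr1d1 (upper row) and Nr1d2 (lower row) in CPM on log axes against ZT in hours, 1 point per library, lines through the means of 3 libraries, open circles for the 4 libraries that go against their labels. Nr1d1 stood between 0.754 and 0.923 CPM at ZT18 in the 3 SPF WT libraries, and the lowest Nr1d2 value of all libraries was 7.10 CPM.

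The first comparison asked how much of either transcript depends on Bmal1 in hepatocytes. With all ZT pooled, Nr1d1 fell in LKO mice, with a log2 fold change of -2.93 in SPF (SE 0.53, edgeR adjusted p = 5.93e-05, n = 18 against 18) and -2.80 in GF mice (SE 0.48, edgeR adjusted p = 1.27e-05). Nr1d2 fell as well, with -1.93 (SE 0.31, edgeR adjusted p = 1.06e-05) and -2.48 (SE 0.28, edgeR adjusted p = 4.45e-09). Of all genes tested 11.5% fell in SPF and 15.2% in GF mice by the same rule. Without the 4 libraries that go against their labels, the log2 fold changes were -2.72 and -2.83 for Nr1d1 and -2.14 and -2.46 for Nr1d2, and 27.9% and 30.1% of genes passed in either direction. The difference of these effects between GF and SPF mice was 0.13 for Nr1d1 (SE 0.72, edgeR adjusted p = 0.991) and -0.55 for Nr1d2 (SE 0.42, edgeR adjusted p = 0.957), and 0.438% of all genes passed that test. The genotype effects in SPF and GF mice rest on separate animals.

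Taken by ZT, Nr1d1 fell during the light phase and passed at no ZT of the dark phase. In SPF mice the log2 fold change of Nr1d1 was -3.64 at ZT2 (SE 0.19, edgeR adjusted p = 1.94e-07), -2.95 at ZT6 (SE 0.46, edgeR adjusted p = 0.00163) and -2.28 at ZT10 (SE 0.24, edgeR adjusted p = 2.48e-05), where 3.24%, 3.39% and 6.05% of all genes fell. In GF mice it fell at the same 3 ZT, with log2 fold changes of -4.38 (SE 0.23), -3.62 (SE 0.51) and -2.49 (SE 0.25) and edgeR adjusted p of 1.43e-07, 0.000484 and 7.33e-06, where 1.92%, 6.07% and 6.79% of all genes fell. At these 3 ZT every WT library of either microbial state exceeded every LKO library of the same state, the 9.39 CPM of GF WT replicate 3 at ZT6 included. The share of all genes whose libraries separate in this way was not computed, here or for the separations given below. None of them is read as particular to the receptors. At ZT18, its low point in WT mice, Nr1d1 differed by 0.22 (SE 0.40, edgeR adjusted p = 0.896) in SPF and 0.30 (SE 0.39, edgeR adjusted p = 0.677) in GF mice, and WT and LKO libraries overlapped.

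At ZT14 the difference in SPF mice, -3.30 (SE 0.95, edgeR adjusted p = 0.271), included the WT library at 84.8 CPM. It was -1.31 with the 4 libraries left out (SE 0.53, edgeR adjusted p = 0.215). With all libraries it passed in a single fit of all 72 with 24 group means (-3.31, edgeR adjusted p = 0.000559). The GF difference at ZT14 was -1.01 (SE 0.97, edgeR adjusted p = 0.601), although all 3 WT values lay above all 3 LKO values. Its SE rests on a spread shared with the SPF groups of that ZT. Without the 4 libraries the GF difference was -1.01 (SE 0.43, edgeR adjusted p = 0.158). At ZT22 the differences were -1.16 (SE 0.59) and -1.79 (SE 0.67), with edgeR adjusted p of 0.398 and 0.196. By edgeR 0 of 13317 genes (0%) passed in SPF mice at ZT14, where 1484 had an unadjusted p under 0.05, and 0.015% of genes passed at ZT18.

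For Nr1d2 the genotypes stood apart through more of the day. In GF mice Nr1d2 fell at all 6 ZT. From ZT2 to ZT22 the log2 fold changes were -2.42, -2.95, -2.78, -2.66, -1.33 and -0.77, with edgeR adjusted p of 3.05e-05, 1.34e-06, 1.33e-07, 0.018, 0.0499 and 0.0223. All WT and LKO libraries were without overlap at each ZT, for which the share of all genes was not computed. At ZT14, ZT18 and ZT22, 3.18%, 4.28% and 2.5% of all genes fell. In SPF mice it fell at ZT2, ZT6, ZT10 and ZT22, with log2 fold changes of -2.53, -2.35, -2.18 and -1.28 and edgeR adjusted p of 1.24e-05, 1.31e-05, 1.3e-06 and 0.000617, and 1.81% of all genes fell at ZT22. The differences at ZT14 and ZT18, -1.40 (SE 0.52) and -0.90 (SE 0.37), did not pass (edgeR adjusted p = 0.364 and 0.416). In a single fit of all 72 libraries the SPF difference at ZT14 passed (-1.40, edgeR adjusted p = 0.0219), and the GF difference at ZT22 did not (-0.76, edgeR adjusted p = 0.327). Nr1d2 fell in SPF mice at these ZT as well once the 4 libraries were left out, with log2 fold changes of -2.16 (SE 0.18, edgeR adjusted p = 2.61e-05) and -1.71 (SE 0.21, edgeR adjusted p = 0.00026) and 5.51% and 4.63% of all genes passing in either direction. In GF mice the calls at ZT14, ZT18 and ZT22 lay near the threshold. Leaving out any 1 of the 6 GF libraries ended the call at ZT14 (edgeR adjusted p up to 0.0787), 9 of 12 such omissions ended it at ZT18 (up to 0.153, the 3 SPF LKO libraries excepted) and 4 at ZT22 (up to 0.108, GF WT replicates 1 and 2 and GF LKO replicates 2 and 3), while the log2 fold change stayed within -2.78 to -2.58, -1.47 to -1.195 and -0.86 to -0.67. The edgeR adjusted p at ZT14 and ZT18 were 4.01e-07 and 0.000369 without the 4 libraries, with 13.6% and 11% of genes passing. None of the 4 is a GF library at these ZT, so what became smaller was the spread estimated over all groups of a ZT.

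**Figure D2:**
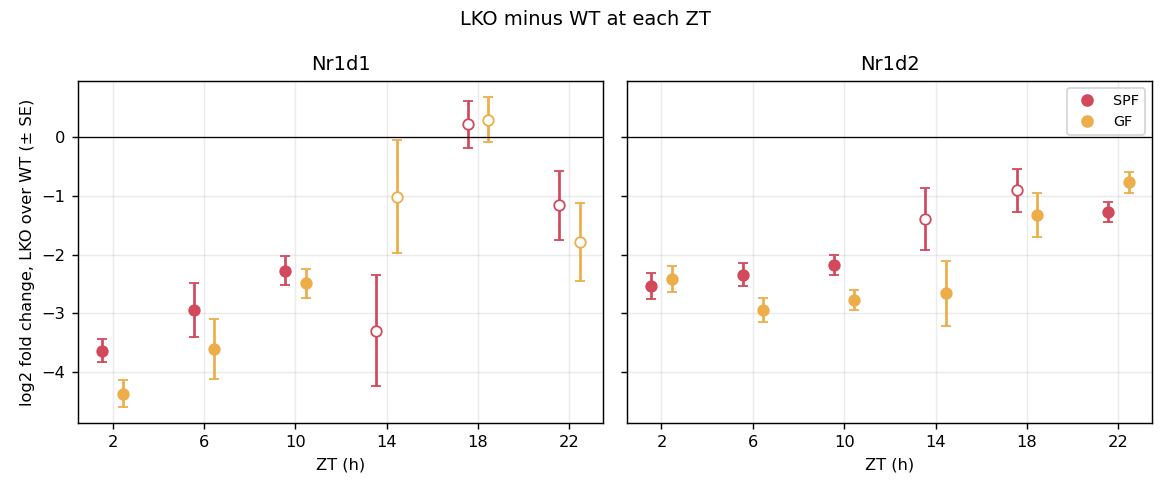
Log2 fold change of LKO over WT at each ZT for Nr1d1 and Nr1d2, in SPF and GF mice, with bars for 1 SE. Filled points passed an adjusted p of 0.05. The lowest values of Nr1d1 stood at ZT2 (-3.64 in SPF, -4.38 in GF mice) and those of Nr1d2 at ZT2 in SPF and ZT6 in GF mice (-2.53 and -2.95).

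The next question was whether the receptors still cycled. A 24 h cosine, fitted on counts, passed for both genes in all 4 groups. The adjusted p by edgeR for Nr1d1 was 0.0298 in SPF WT, 0.000434 in SPF LKO, 4e-06 in GF WT and 3.12e-06 in GF LKO mice, and for Nr1d2 it was 1.77e-05, 0.0229, 2.04e-08 and 1.2e-05. Among all genes 15.5%, 22.2%, 27.7% and 36% passed in these groups. Leaving out the libraries numbered 1, 2 or 3 in turn moved the value of Nr1d1 in SPF WT mice between 0.000115 and 0.243, with the call lost without replicate 1 or 2, and that of Nr1d2 in SPF LKO mice between 0.0561 and 0.219, with the call lost each time. Those values were 9.45e-07 and 8.26e-05 without the 4 libraries, when 18.5%, 19.5%, 33% and 36% of genes passed in the 4 groups. On log2 CPM the peak-to-trough distance of Nr1d1 was 5.76 (SE 0.90) in SPF WT, 5.33 (SE 0.66) in GF WT, 2.82 (SE 0.40) in SPF LKO and 2.66 (SE 0.27) in GF LKO mice. For Nr1d2 it was 2.75 (SE 0.29), 3.23 (SE 0.22), 1.62 (SE 0.46) and 1.15 (SE 0.14) in the same order. Leaving out the 4 libraries, these were 6.28, 5.92, 3.07 and 2.66 for Nr1d1 and 2.75, 3.32, 1.81 and 1.15 for Nr1d2.

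The difference of the curves between genotypes passed in GF mice, with an edgeR adjusted p of 0.000111 for Nr1d1 and 2.74e-06 for Nr1d2, where 6.04% of all genes passed. With the 4 libraries kept, it did not pass in SPF mice (edgeR adjusted p = 0.742 and 0.235, 1.06% of genes). With them left out it passed in SPF mice for Nr1d1 (edgeR adjusted p = 0.0112) and not for Nr1d2 (edgeR adjusted p = 0.355), with 2.51% of genes passing.

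The time of the fitted peak of Nr1d1 was ZT6.42 (SE 0.60 h) in SPF WT, ZT6.81 (SE 0.47 h) in GF WT, ZT6.90 (SE 0.54 h) in SPF LKO and ZT9.98 (SE 0.38 h) in GF LKO mice. The peak of GF LKO mice was thus the only one of the 4 after ZT9, and it did not depend on the 4 libraries, none of which is GF LKO. Without the 4 libraries the Nr1d1 peaks were at ZT5.81 in SPF WT, ZT6.73 in GF WT and ZT6.43 in SPF LKO mice. The difference of the Nr1d1 curve between GF and SPF mice passed in LKO (edgeR adjusted p = 0.0233, 4.96% of genes) and not in WT mice (edgeR adjusted p = 0.819, 0.0442% of genes). The value in LKO mice was 0.00412 without the 4 libraries (2.7% of genes), and leaving out the libraries numbered 1, 2 or 3 in turn gave 0.0924 to 0.277, so the call was lost each time. The fitted peak of Nr1d2 was at ZT8.19 (SE 0.40 h) in SPF WT, ZT8.74 (SE 0.25 h) in GF WT, ZT9.73 (SE 1.07 h) in SPF LKO and ZT9.12 (SE 0.45 h) in GF LKO mice, and its curve did not pass between microbial states in WT (edgeR adjusted p = 0.598) or LKO mice (edgeR adjusted p = 0.499). Without the 4 libraries the Nr1d2 peaks were at ZT7.86 in SPF WT and ZT8.65 in GF WT mice. In SPF LKO mice the Nr1d2 peak was then at ZT8.08 (SE 0.49 h). In WT livers of either state the fitted peak of Nr1d1 preceded that of Nr1d2, a difference that was not tested.

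The second axis of the study was the microbiota. With all ZT pooled, Nr1d2 fell in GF LKO against SPF LKO mice, with a log2 fold change of -0.79 (SE 0.23, edgeR adjusted p = 0.00684), and 18.4% of all genes fell by this rule. It was -0.53 (SE 0.20, edgeR adjusted p = 0.0333) without the 4 libraries, 2 of which are the high SPF LKO ones, and 36.7% of genes then passed in either direction. Without the libraries numbered replicate 1 it was -0.76 and did not pass (edgeR adjusted p = 0.0578). The corresponding difference of Nr1d1, -0.70 (SE 0.33, edgeR adjusted p = 0.0882), did not pass. In WT mice, where 17.7% of all genes fell, neither gene passed, with -0.85 (SE 0.58, edgeR adjusted p = 0.264) for Nr1d1 and -0.25 (SE 0.33, edgeR adjusted p = 0.591) for Nr1d2. With ZT added to the fit as a term, the adjusted p in WT mice were 0.0485 for Nr1d1 (-0.81) and 0.00579 for Nr1d2 (-0.34), and that of Nr1d1 in LKO mice was 0.00654 (-0.68).

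Among the 6 ZT the microbial difference of Nr1d1 passed at ZT2. There it fell in GF mice, with log2 fold changes of -1.09 in WT (SE 0.17, edgeR adjusted p = 0.00327) and -1.83 in LKO livers (SE 0.24, edgeR adjusted p = 0.0029), where 4.01% and 3.21% of all genes fell. The SPF values (45.2 to 48.7 CPM in WT and 3.53 to 4.24 CPM in LKO mice) lay entirely above the GF values (16.3 to 29.1 and 0.789 to 1.34 CPM). How many of all genes separate in this way was not computed. Neither ZT2 result involves any of the 4 libraries. Both calls were lost in a single fit of all 72 libraries with 24 group means, with differences of -1.10 and -1.82 (edgeR adjusted p = 0.164 and 0.0915). At ZT6 the differences were -0.77 (SE 0.43, edgeR adjusted p = 0.274) in WT and -1.44 (SE 0.51, edgeR adjusted p = 0.173) in LKO mice. Both genes passed at ZT6 in LKO mice once the 4 libraries were left out, Nr1d1 with -1.44 (SE 0.23, edgeR adjusted p = 0.00947) and Nr1d2 with -0.75 (SE 0.17, edgeR adjusted p = 0.0409), and 2.76% of genes passed. Of the 4 only GF WT replicate 3 is from ZT6, so the LKO libraries compared were unchanged. The differences hardly moved, and the spread, estimated over all groups of that ZT, became smaller. At ZT10 to ZT22 Nr1d1 passed at no ZT in either genotype, while in the single fit of all 72 libraries ZT14 passed in WT mice (-2.49, edgeR adjusted p = 0.0152), with the WT library at 84.8 CPM included. In the fit of ZT14 without the 4 libraries that difference was -0.03 (SE 0.45, edgeR adjusted p = 0.98), so the call rests on that library. From ZT6 to ZT22, 1.08%, 1.38%, 0.0526%, 0.27% and 0.169% of all genes fell in WT and 0.162%, 0.461%, 0.03%, 1.43% and 0.818% in LKO mice. With all libraries Nr1d2 passed at 0 ZT by edgeR in either genotype, against 2 ZT in WT and 2 in LKO mice by DESeq2, and had an unadjusted p under 0.05 by edgeR at 2 ZT in WT and 4 in LKO mice. In WT mice the lowest edgeR adjusted p was at ZT2 (-0.67, SE 0.21, edgeR adjusted p = 0.0548). Tested at single ZT, the genotype effect in GF minus that in SPF mice passed at 0 ZT for either gene by edgeR and by DESeq2, with an unadjusted p under 0.05 by edgeR in 3 of 12 tests and edgeR adjusted p from 0.557 to 0.999, and 0.0221%, 0%, 0.00744%, 0%, 0% and 0.0147% of genes passed from ZT2 to ZT22.

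**Figure D3:**
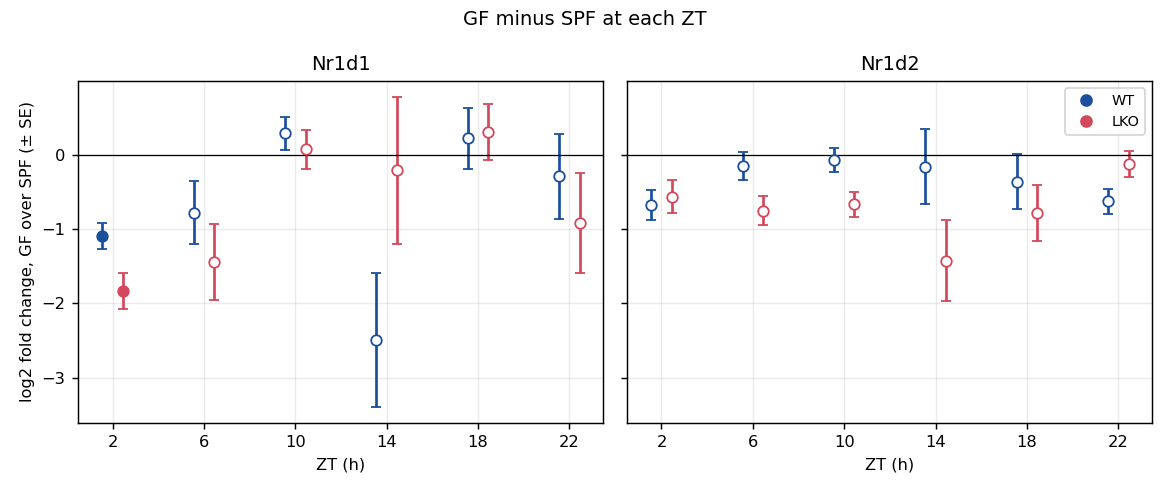
Log2 fold change of GF over SPF at each ZT for Nr1d1 and Nr1d2, in WT and LKO mice, with bars for 1 SE. Filled points passed an adjusted p of 0.05, which were those of Nr1d1 at ZT2, -1.09 in WT and -1.83 in LKO mice.

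Per exon length, Nr1d2 was the more abundant receptor transcript in 68 of 72 libraries. Nr1d1 exceeded it in 3 SPF WT and 1 GF WT libraries and in no LKO library. Among the SPF WT ones was ZT14 replicate 3 (57.3%), which goes against its label. The share of Nr1d1 in the summed receptor transcripts per length was 52.9% ± 7.10 (SD, n = 3) at ZT2 and 48.5% ± 4.08 at ZT6 in SPF WT mice and 5.13% ± 0.658 at ZT18. In GF WT mice it was 44.5% ± 8.57 at ZT2 and 7.25% ± 1.38 at ZT18. In SPF LKO mice the means ran from 12.003% at ZT18 (14.3% without the library that goes against its label) to 38.5% at ZT6. In GF LKO mice they ran from 15.1% at ZT22 to 31.9% at ZT10. At ZT18 the REV-ERB transcripts of WT livers were therefore mainly Nr1d2.

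The sum of both genes per length was 45.3 ± 2.83 CPM per kilobase (SD, n = 3) at ZT6 in SPF WT against 7.45 ± 1.81 in SPF LKO mice, and 34.1 ± 12.4 in GF WT (41.2 without the library that goes against its label) against 3.78 ± 0.128 in GF LKO mice. At ZT22 the sums were 4.98 ± 1.60 and 2.13 ± 0.252 in SPF WT and SPF LKO mice, and 3.46 ± 1.09 and 1.74 ± 0.192 in GF WT and GF LKO mice. Averaged over the day, the log2 ratio of Nr1d2 to Nr1d1 per length passed no test between genotypes or microbial states. It was 1.57 ± 1.63 (SD, n = 18) in SPF WT, 1.68 ± 0.916 in SPF LKO, 1.84 ± 1.32 in GF WT and 1.73 ± 0.677 in GF LKO mice. The 4 differences ran from -0.11 to 0.27, and in a two-sided permutation test within ZT with 100000 resamples each had an adjusted p of 0.855 (raw p 0.346 to 0.855).

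**Figure D4:**
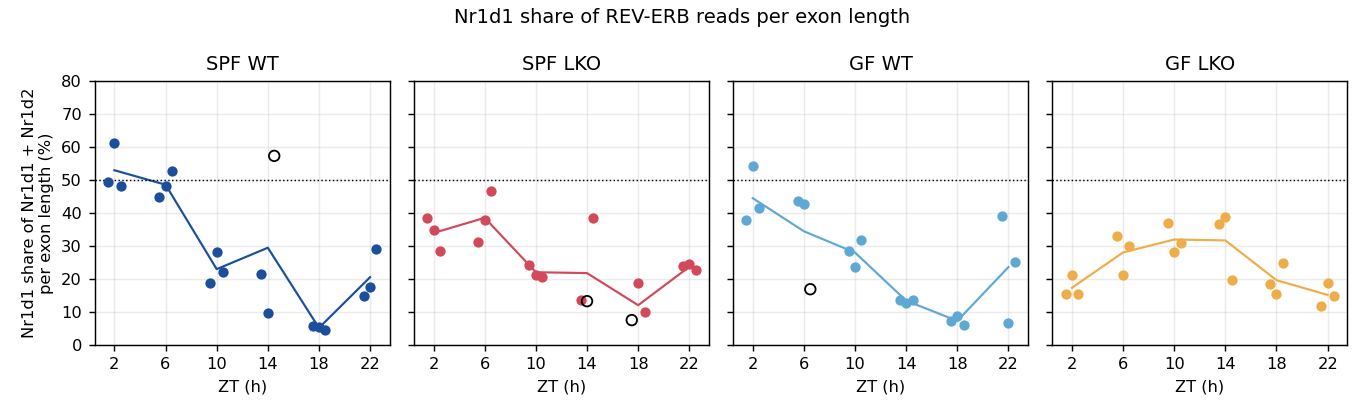
Share of Nr1d1 in the sum of Nr1d1 and Nr1d2 reads per exon length, in percent, against ZT in hours, 1 point per library, lines through the means of 3, open circles for the 4 libraries that go against their labels, dotted line at equal levels (50%). The mean share in SPF WT mice was 52.9% at ZT2 and 5.13% at ZT18.

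Genes that REV-ERB receptors are known to repress were followed as a list of 15, among them Arntl, Clock, Npas2, Cry1, Nfil3, Elovl3, Apoc3, G6pc, Ppargc1a, Lpl, Cidec, Insig2 and Fgf21. All 15 were tested. With all ZT pooled, 6 rose and 2 fell in SPF LKO mice, with a median log2 fold change of 0.25 against -0.01 over all genes, and 8 rose and 1 fell in GF LKO mice (median 0.29 against 0.01). Of all genes 11.6% and 15.6% rose. With the 4 libraries left out, 6 rose and 3 fell in SPF mice and 8 rose and 1 fell in GF mice. By ZT the rises were most numerous at ZT6 and ZT10. At ZT6, 8 rose in SPF and 9 in GF mice (median 0.95 and 1.24), where 3.87% and 5.59% of all genes rose. At ZT10, 9 rose in SPF and 10 in GF mice (median 1.02 and 1.46), where 5.88% and 6.33% rose. At ZT18, 0 rose in SPF and 2 in GF mice, where 0% and 4.16% of all genes rose, and without the 4 libraries 3 rose in each. The lists were chosen with earlier results of these data known.

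Npas2, the CLOCK paralog, showed the largest log2 fold change of the list at a single ZT. It rose at ZT10 by 7.80 in SPF LKO mice (edgeR adjusted p = 1.34e-09) and by 7.23 in GF LKO mice (edgeR adjusted p = 1.41e-09). In WT mice its mean at ZT10 was 0.0693 CPM in SPF and 0.130 CPM in GF livers, with 0 to 2 counts in the SPF and 2 to 3 in the GF libraries, so these fitted folds rest on counts near 0. Arntl itself, whose counts include the exons that Cre leaves in place, rose at ZT10 by 2.83 in SPF and 3.802 in GF LKO mice and fell at ZT22, with log2 fold changes of -1.35 and -1.67. Cry1, a repressor of BMAL1 and CLOCK, rose by 3.21 at ZT6 in SPF and 2.54 in GF mice, from WT means of 6.59 and 12.8 CPM.

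Among metabolic genes, Elovl3, a fatty acid elongase, rose at ZT10 by 3.68 in SPF and 3.90 in GF LKO mice. In SPF WT livers its mean ranged from 116 CPM at ZT10 to 1188 at ZT22. Insig2, which holds back SREBP processing, rose at ZT10 by 2.10 and 3.25. Lpl, lipoprotein lipase, rose at all ZT pooled by 4.14 (SE 0.31, edgeR adjusted p = 1.6e-12) and 4.004 (SE 0.16, edgeR adjusted p = 3.78e-22), and its 24 h rhythm passed in none of the 4 groups. Cidec, a lipid droplet protein, went the other way and fell with all ZT pooled, with -1.005 (SE 0.20, edgeR adjusted p = 0.000286) and -1.36 (SE 0.25, edgeR adjusted p = 3.41e-05). In WT livers 13 of the 15 list genes had their lowest mean at ZT2, ZT6 or ZT10 in either microbial state, against 10 in SPF LKO and 9 in GF LKO mice. The share of all genes with their lowest mean at these ZT was not computed, so no difference between genotypes is read from these numbers. A 24 h rhythm passed for 12 of 15 in SPF WT and 10 in GF WT mice and for 2 in SPF LKO and 4 in GF LKO mice, against 15.5%, 27.7%, 22.2% and 36% of all genes in that order. The counts of genes with a 24 h rhythm were 13, 11, 4 and 4 without the 4 libraries, against 18.5%, 33%, 19.5% and 36%.

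**Figure D5:**
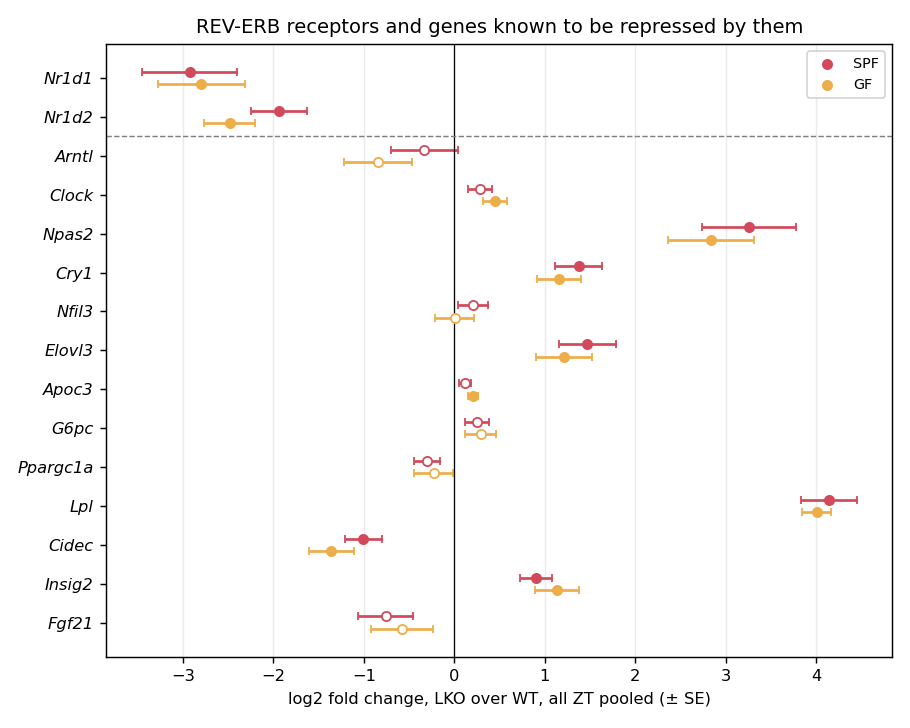
Log2 fold change of LKO over WT with all ZT pooled (horizontal axis, bars for 1 SE) for Nr1d1 and Nr1d2, above the dashed line, and 13 of the 15 genes known to be repressed by them, in SPF and GF mice. Filled points passed an adjusted p of 0.05. Lpl and Npas2 rose by 4.14 and 3.25 in SPF mice, and Cidec stood at -1.005.

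The other genes of the pathway were grouped by role, and their counts stand beside 11.6% of all genes that rose and 11.5% that fell in SPF mice, and 15.6% and 15.2% in GF mice. Of the 8 E-box repressors, genes that are themselves BMAL1 targets, 2 rose and 3 fell in SPF mice with all ZT pooled, and 2 rose and 2 fell of 7 tested in GF mice. Bhlhe41 fell, with -2.96 (SE 0.45, edgeR adjusted p = 4.47e-06) in SPF mice and was too low to be tested in GF mice, Ciart fell with -2.30 and -3.51, and Per3 with -1.29 and -1.80 in SPF and GF mice, while Cry1 and Cry2 rose in both. Per1 and Per2 passed in neither. Of the 4 D-box factors, 0 rose and 1 fell in SPF mice and 0 rose and 2 fell in GF mice. Dbp, an albumin promoter activator driven by E-boxes, fell with -2.29 (SE 0.53) and -2.78 (SE 0.57). Hlf fell in GF mice, with -0.44 (SE 0.11, edgeR adjusted p = 0.00135), and stood at -0.15 in SPF mice, where it did not pass. Tef passed in neither (-0.46 and -0.40). The 6 genes of the corepressor complex, among them Ncor1, Hdac3, Tbl1x, Tbl1xr1 and Gps2, held 0 passing genes between genotypes in either state, with medians of 0.00 and -0.01, by edgeR with all ZT pooled, with an unadjusted p under 0.05 for Gps2 alone, in GF mice. Of the 5 genes that govern REV-ERB protein stability, the ubiquitin ligase gene Fbxw7 rose by 0.18 and 0.24, and in GF mice Mycbp2 rose by 0.16 and Siah2 fell by 0.27. Of the ROR receptors, Rora did not pass (-0.02 and 0.10) and Rorb was too low to be tested.

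Between microbial states the repressed list had 2 genes that rose in WT (Apoc3 by 0.20 and Lpl by 0.56) and 5 that rose and 2 that fell in LKO mice, where 14.2% and 18.1% of all genes rose. At ZT2, where Nr1d1 fell in GF mice, 7 of the 15 rose and 2 fell in WT livers and 4 rose in LKO livers, against 6.13% and 5.71% of all genes that rose. Their medians were 0.53 and 0.27, beside -0.02 and -0.02 over all genes. Other clock genes moved at ZT2 too. In WT livers 1 of 7 E-box repressors tested rose and 3 fell, and 1 of 4 D-box factors rose and 2 fell, where 4.01% of all genes fell. In LKO livers 0 of 7 and 0 of 4 rose, and 0 and 1 fell, where 3.21% of all genes fell. A link between the list and the fall of Nr1d1 was not tested. All comparisons of GF with SPF use the same libraries as the genotype comparisons.

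Last, the genes whose pattern over the 24 conditions was most like each receptor were ranked by Pearson r of mean log2 CPM among 10710 genes, as a description. The points share libraries and genotypes, and no p is given. For Nr1d1 these were Dcun1d4 (r = 0.915), Otud5 (0.888), Tns2 (0.880), Nr1d2 (0.870) and Ulk1 (0.858). For Nr1d2 they were 1810058I24Rik (r = 0.951), 5031439G07Rik (0.914), Optn (0.909), Efhd2 (0.908) and Rgs16 (0.908). Both genotypes are among these conditions, so a lower level in LKO mice is part of what chose the genes and carries no test. The log2 fold changes of LKO over WT with all ZT pooled were -3.70 in SPF and -5.38 in GF mice for Rgs16, a regulator of G protein signaling, and -0.16 and -0.22 for Optn.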

How the data were processed

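RNA from 72 livers was sequenced single-end (50 bases) from a stranded mRNA kit. The authors aligned reads with STAR 2.6.1b and made the deposited table of raw counts per gene with featureCounts 2.0.0 (Ensembl release 97 exons, GRCm38, without strand, reads in overlapping or multiple places not counted). The headers of all 72 columns were matched to the labels, with 0 columns unused. Libraries within a condition are separate mice, so p-values at single ZT measure the spread between mice. The tests with all ZT pooled had no term for ZT, so their spread also holds the change over the day. Depth was 17369927 to 22076113 counts, median 19106725.5, which limits the precision of Nr1d1 at its low ZT.

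CPM were computed with edgeR 4.0.16 (R 4.3.3) and its TMM scaling. Tests were edgeR's quasi-likelihood tests after filterByExpr, 18 against 18 libraries with all ZT pooled, 3 against 3 in a fit of the 12 libraries of a ZT, and a 24 h cosine for rhythms. P-values were adjusted by Benjamini-Hochberg over all genes tested, with a threshold of 0.05. Peak times and peak-to-trough distances were fitted on log2 CPM without a prior count. Log2 CPM with a prior count of 2 served for the check of labels, the correlation of same-numbered libraries and the ranking by Pearson r. The log2 ratio of the genes, with 0.5 counts added, was tested by permuting labels within ZT (100000 resamples, two-sided, 4 comparisons adjusted together). Alternatives were DESeq2 1.42.0, RLE scaling, no filter on low counts, ZT as a term, the replicate number as a block, 1 fit of all 72 libraries, 6 ZT means in place of the cosine, an offset of 5 counts, labels permuted over all ZT, and leaving out libraries. Scripts were tested on simulated data. The rest ran in Python 3.11.15 with scipy 1.17.1 and numpy 2.4.6, and figures in matplotlib 3.10.9.

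Named genes were the 2 members, every gene of the pathway lists (singly or by counts), and the 5 genes most like each member by Pearson r, leaving out genes averaging under 1 in log2 CPM. Counts cover each whole list, and 3 list genes are not reported by name here. The members and lists were chosen with earlier results of these data known.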

Additional observations from a re-analysis of the deposited data

Results flagged for a closer look

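The 24 h curve differed between genotypes in GF mice for Nr1d2 (edgeR adjusted p = 2.743e-06) and for Nr1d1 (edgeR adjusted p = 0.0001105), by the test of the difference itself. The peak-to-trough distance in log2 CPM was 3.23 in GF WT and 1.15 in GF LKO mice for Nr1d2, and 5.33 and 2.66 for Nr1d1. Between microbial states, the curve of Nr1d1 differed in LKO mice (edgeR adjusted p = 0.02326), with fitted peaks at 6.90 h in SPF LKO and 9.98 h in GF LKO mice. That call was lost whenever the libraries of 1 replicate number were left out.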

How the results depend on the processing

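Under settings other than leaving out replicates, 205 of 229 recomputed values (pooled effects, rhythms, ratios and numbers of ZT) and 251 of 288 tests at single ZT kept their direction and their side of the threshold. The pooled genotype effects did so under every setting run, within -2.93 to -2.54 (SPF) and -2.83 to -2.41 (GF) for Nr1d1 and -2.14 to -1.78 and -2.49 to -2.20 for Nr1d2. With ZT as a term the pooled microbial effects of Nr1d1 in WT (-0.81) and LKO mice (-0.68) and of Nr1d2 in WT mice (-0.34) passed. Without the 4 libraries that go against their labels, the pooled difference of genotype effects for Nr1d1 was -0.11, the rhythm difference between genotypes for Nr1d1 in SPF mice passed (0.01123), the microbial effect in LKO mice passed at 2 ZT for Nr1d1 and 1 for Nr1d2, and the log2 ratio differed by -0.19 between genotypes in SPF mice. There, 5 single values changed sign without passing, Nr1d1 in LKO mice at ZT14 (0.27) and between genotypes in SPF mice at ZT18 (-0.0064), and Nr1d2 in WT mice at ZT6 (0.001) and ZT14 (0.289) and in LKO mice at ZT18 (0.0289). With no filter on low counts, Nr1d1 passed at 1 ZT for the difference of genotype effects, 5 for genotype in SPF mice, and 2 and 3 for microbes in LKO and WT mice, and Nr1d2 at 1 for the difference and 5 and 2 for microbes in LKO and WT mice, with a rhythm difference in SPF mice of 0.03998. For Nr1d1 between genotypes in SPF mice at ZT14, the edgeR adjusted p was 3.3e-12 unfiltered and 0.271 with the filter. The reason for so large a gap was not tested, and no call above rests on the unfiltered fits. In 1 fit of all 72 libraries the microbial effect in LKO mice passed at 0 ZT for Nr1d1 and 1 for Nr1d2 (ZT14, 0.0196). In the fit of ZT14 without the 4 libraries that Nr1d2 effect was -0.20 (edgeR adjusted p = 0.646). With DESeq2, Nr1d2 passed between microbial states at 2 ZT in LKO and 2 in WT mice; some DESeq2 adjusted p of Nr1d1 were NA and stay so. With 6 ZT means in place of a cosine, the rhythm difference of Nr1d1 between microbial states in LKO mice (0.1548) and the rhythm of Nr1d2 in SPF LKO mice (0.1769) did not pass. With an offset of 5 counts the ratio differed by -0.0271 between microbial states in LKO mice.

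Same-numbered libraries deviated together, with a correlation over 0.1, in 6, 5, 6 and 3 of 18 pairs for genotype in SPF and GF mice and microbes in WT and LKO mice, so the samples share only a number, and 7, 4, 6 and 3 correlated best with their own number. With the replicate number as a block, Nr1d2 passed at 1 ZT for microbes in WT mice and no longer at ZT18 between genotypes in GF mice (-1.31, edgeR adjusted p = 0.0682).

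Leaving out replicates gave pooled differences of genotype effects of -0.26 to 0.40 for Nr1d1, rhythm values of 0.000115 to 0.243 (Nr1d1, SPF WT), 0.0561 to 0.219 (Nr1d2, SPF LKO) and 0.0924 to 0.277 (Nr1d1, microbial states in LKO mice), pooled Nr1d2 effects in LKO mice of -0.95 to -0.64, and ratio differences between microbial states of -0.00836 to 0.53 in WT and -0.09004 to 0.18 in LKO mice. The number of ZT with a microbial effect was 1 to 2 for Nr1d1 in LKO mice and 0 to 1 for Nr1d2 in LKO and in WT mice. Single values that changed sign were within -0.13 to 0.30 (Nr1d1, LKO, ZT10), -0.59 to 0.27 (Nr1d1, LKO, ZT14), -0.0064 to 0.54 and -0.0169 to 0.54 (Nr1d1, genotype in SPF and GF mice, ZT18), -0.0199 to 0.47 and -0.014 to 0.54 (Nr1d1, WT and LKO, ZT18), -1.28 to 0.47 (Nr1d1, WT, ZT22), -0.23 to 0.001 and -0.35 to 0.29 (Nr1d2, WT, ZT6 and ZT14) and -1.08 to 0.03 (Nr1d2, LKO, ZT18). Beyond the named settings, the cause was not tested.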
